A study of Homo sapiens with 10 samples.

Results

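Olfactory receptor genes were examined as a set of mostly silent genes in SW620, a human cell line from colorectal cancer, and in cells of that line recovered from metastases in mice. Members were the genes whose single listed symbol reads OR, digits, 1 or 2 letters and digits, as in OR1A1, and 227 of the 4713 genes measured met this rule. They are covered by 305 rows of the deposited table, 188 of them by 1 row only, against a median of 10 rows per gene over all genes. All 227 lie on the 4 chromosomes that hold 4660 of the measured genes, 159 on chromosome 11, 50 on chromosome 1, 17 on chromosome 12 and OR13A1 alone on chromosome 10. Under current RefSeq names 221 are protein-coding and 6 are pseudogenes, and 14 further symbols of the same form ending in P were not members. Another 30 rows name several genes with an olfactory receptor among them and were not used.

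The arrays hold SW620 cells from lung metastases (3 arrays, called lung below), SW620 cells from liver metastases (3 arrays, liver) and the parental SW620 line (4 arrays, parental). Derivatives had been selected in balb/c nude mice, which lack T cells, and every sample was RNA from cells grown in culture in DMEM with 5% fetal bovine serum. The labels call all arrays biological replicates but do not say whether those of a derivative are separate metastases or cultures of 1 derivative, so a p-value here reflects no more than the spread among the 10 arrays. No further gene manipulation or drug is listed for any group.

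Olfactory receptors are G protein-coupled receptors with a coding sequence in a single exon, and they form the largest gene family of the human genome. In the nose each sensory neuron expresses 1 receptor allele and keeps the other receptor genes in silent chromatin. Odorant binding activates the G protein subunit GNAL, adenylyl cyclase ADCY3, a cyclic nucleotide-gated channel and the chloride channel ANO2. Class I receptors (families 51, 52 and 56 here) resemble fish receptors and lie in a single cluster on chromosome 11, while class II receptors lie in clusters on most chromosomes. A few members have been found in other tissues, among them OR51E1 and OR51E2 in prostate. In colon epithelium the family as a whole is not known to be expressed.

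A feature that members share outside the rule is the sequence upstream of the gene. RefSeq windows (build GRCh38.p14) of the 250 bases before the gene start were matched for 182 of the 227 members by gene ID. Their median GC content was 36.6%, against 58% over all 27305 windows in the table, and the median number of CpG dinucleotides was 1 in members against 11 over all windows. The letters TAATTA, the core bound by homeodomain factors such as the olfactory neuron factor LHX2 and the same on both strands, occurred in 36 member windows (19.8%) and in 4.49% of all windows. TAATTA is made of A and T only, and the member windows are richer in these bases. The windows below belong to the member with the largest rise in lung derivatives (OR2AK2), the member with the smallest p there (OR8J1) and the member with the highest level (OR10G7). Capitals mark TAATTA, and it does not occur in the windows of OR2AK2 and OR8J1. They lie at chr1:247964983-247965232 on the + strand with 23.2% GC, chr11:56354041-56354290 on the + strand with 44.4% GC, and chr11:124041326-124041575 on the - strand with 42.4% GC.
OR2AK2: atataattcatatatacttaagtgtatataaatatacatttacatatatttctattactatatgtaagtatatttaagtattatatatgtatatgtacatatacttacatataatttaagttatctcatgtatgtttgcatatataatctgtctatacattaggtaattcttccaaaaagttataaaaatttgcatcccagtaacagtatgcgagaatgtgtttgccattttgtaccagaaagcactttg
OR8J1: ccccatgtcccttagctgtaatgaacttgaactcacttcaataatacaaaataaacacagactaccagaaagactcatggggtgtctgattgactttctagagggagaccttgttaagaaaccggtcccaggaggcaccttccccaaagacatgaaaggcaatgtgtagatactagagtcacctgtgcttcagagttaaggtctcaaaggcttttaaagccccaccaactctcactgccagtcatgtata
OR10G7: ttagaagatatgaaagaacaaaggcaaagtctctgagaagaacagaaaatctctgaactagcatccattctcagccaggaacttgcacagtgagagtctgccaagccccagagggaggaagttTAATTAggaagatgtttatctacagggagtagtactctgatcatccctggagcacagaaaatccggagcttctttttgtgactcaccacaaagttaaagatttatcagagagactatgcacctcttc

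Across all rows with a listed gene, no pair of arrays held the same values, and the medians of the arrays lay between 8.62 and 8.72 on the log2 scale. Parental replicate 4 stood apart from the other parental arrays. Its correlation across rows with them was 0.965 to 0.968, and with the lung arrays 0.963 to 0.964. Parental replicates 1 to 3 correlated at 0.986 to 0.988 with each other and at 0.940 to 0.957 with the lung arrays. The lung arrays correlated with each other at 0.966 to 0.968. The spread of all rows within an array (SD) was 2.25 to 2.27 in lung, 2.27 to 2.28 in liver and 2.28 to 2.29 in parental arrays. The keratins of simple epithelium KRT8 and KRT18 averaged 12.82 and 11.61 in lung, 12.77 and 11.73 in liver and 12.75 and 11.62 in parental cells. Of the 11 colon epithelium markers measured, 1 was higher and 5 lower in lung derivatives and 5 were lower in liver derivatives (limma). Of 6 lung epithelium markers SFTPA1, SFTPA2 and PDPN were higher in lung derivatives, by 0.39, 0.45 and 0.35, while AQP5 (0.17), SCGB1A1 (-0.03) and SFTPD (-0.05) were not called. Lung and parental arrays overlapped in SFTPA1 and SFTPA2 but not in PDPN, and 12.9% of all genes were called higher. In liver derivatives 0 of the 6 were called (limma; 1 at an unadjusted p under 0.05). Of 12 hepatocyte markers RBP4 (-0.70) and CYP2E1 (-0.25) were called lower in lung derivatives, while 9 of the 12 had a positive difference and the median was 0.13. In liver derivatives 0 of the 12 were called (limma; 4 at an unadjusted p under 0.05, RBP4 among them with -0.50 and an adjusted p of 0.0582). In such bulk samples fewer cells of a type and less RNA per cell cannot be told apart.

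The members sat at the dim end of the table. Their levels, as means of all rows of a gene over the 10 arrays, ran from 3.66 to 8.06 with a median of 6.18, while all genes ran from 3.63 to 13.45 with a median of 8.30. All 227 lay below the median of all genes, and 185 (81.5%) fell in the lowest of 4 level bins, sets of equal size cut from all genes by mean level. A row's value depends on the binding of its own probes and on background light, so these levels show where the family lies and do not rank receptors by RNA amount. The deposited table gives no detection call, and whether a receptor was expressed at all cannot be told from its level. The 5 members with the highest values were OR10G7 (8.06), OR2W3, OR51S1 (7.89), OR10S1 (7.87) and OR52M1 (7.84), and the lowest were OR6C70 (3.66) and OR6K3 (3.74). Bright genes lie far above this range, such as ribosomal protein genes with a median of 12.44.

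Members varied more between replicates than the median gene of the table, but not more than dim genes with 1 row. The median residual SD of the fit was 0.18 for members and 0.11 for all genes. It was 0.14 for the 994 other genes in the lowest level bin and 0.17 for the 185 other genes with 1 row. With both features matched the order turned: it was 0.18 for the 155 members with 1 row in the lowest level bin and 0.22 for the 56 other genes of that kind. By group, the median SD of a member was 0.20 in lung, 0.10 in liver and 0.16 in parental arrays, against 0.10, 0.07 and 0.12 for all genes. Where a member had several rows (39 genes), the rows differed by a median of 1.71 in level between the dimmest and the brightest. The brightest of the 4 rows of OR2W3 averaged 9.28, and the other 3 hold identical values (7.57).

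Lung derivatives showed a broad and small upward difference across the family relative to parental cells. The median difference over the 227 members was 0.26 log2 units, a factor of 1.20, against -0.01 over all genes, and 216 members had a positive difference. In the limma fit with Benjamini-Hochberg adjustment over all genes, 68 members were higher and 0 lower at an adjusted p under 0.05, where 12.9% of all genes were called higher and 17.3% lower. That is 30.0% of the members in either direction, beside 30.1% of all genes, so the share of members called was that of the table and the direction of the calls differed from it. The called differences ran from 0.24 to 1.04 with a median of 0.45, and 1 member (OR2AK2) reached 1 log2 unit. In 55 members (24.2%) every lung array lay above every parental array, beside 12.8% of all genes and 20.4% of the 994 other genes in the lowest level bin. In OR2AT4 alone every lung array lay below, beside 19.5% of all genes and 43 of those 994 other genes. The count of 68 was 31 without lung replicate 1, 42 without lung replicate 3, 35 without parental replicate 1 and 39 without parental replicate 2, and 107 without lung replicate 2. Over all genes the count of 1420 was 838, 1116, 847, 832 and 1279 in these fits, in the same order. All calls of members were upward in each of these fits. Fitted row by row, 33 of the 305 member rows were called (10.8%), all higher, beside 13.1% of all rows called and 5.15% called higher.

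**Figure D1:**
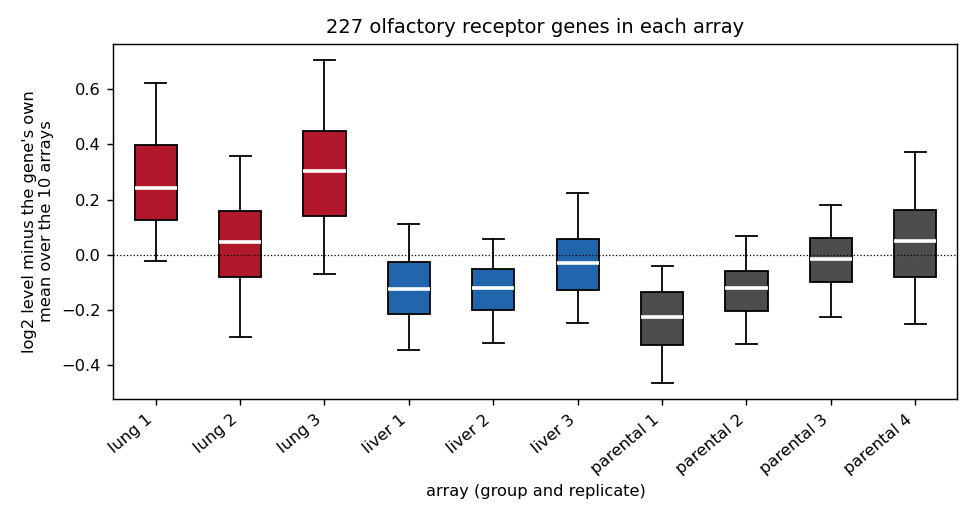
Log2 level of each olfactory receptor gene minus its own mean over the 10 arrays, by array; boxes span the 25th to 75th percentile of the 227 genes, white lines are medians and whiskers reach the 5th and 95th percentiles. Lung replicates 1 and 3 have the highest medians (0.24 and 0.30), while lung replicate 2 (0.04) and parental replicate 4 (0.05) lie side by side and parental replicate 1 is lowest (-0.22).

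The arrays of a group did not move as a block. The median deviation of members from their own 10-array means was 0.24, 0.04 and 0.30 in lung replicates 1 to 3. It was -0.12, -0.12 and -0.03 in liver replicates 1 to 3, and -0.22, -0.12, -0.02 and 0.05 in parental replicates 1 to 4. Lung replicates 1 and 3 were thus high, with 213 and 198 members above their own mean, whereas lung replicate 2, with 134, overlapped parental replicate 4, with 133. Parental replicate 1 was low, with 7 members above their own mean. The 994 other genes of the lowest level bin were highest in the lung arrays, with median deviations of 0.12, 0.05 and 0.09. Theirs were 0.00, -0.04 and -0.02 in liver and -0.11, -0.09, 0.00 and -0.02 in parental replicates. Within groups their order of arrays was not that of the members. The part of this shift of dim genes in the receptor differences was not tested.

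The largest called rise in lung derivatives was in OR2AK2, a class II receptor of the large chromosome 1 cluster. Its levels were 6.35, 6.02 and 5.57 in lung, 4.86, 5.19 and 4.81 in liver and 4.39, 4.97, 4.78 and 5.61 in parental replicates. Lung replicate 3 lay just under parental replicate 4, so the groups overlapped. The lung difference was 1.04 (SE 0.25, adjusted p = 0.0125, limma), a 2.06-fold rise, with 0.53 in its brighter row and 1.55 in the dimmer. OR4C5 had 6.51, 6.49 and 7.08 in lung against 5.55, 6.13, 6.12 and 5.88 in parental arrays, and every lung array was above (0.77, SE 0.22, adjusted p = 0.0222). OR5B3, from the chromosome 11 cluster that ends with OR4D9, had 6.46, 6.47 and 6.07 in lung against 5.35, 5.58, 5.66 and 6.01 in parental arrays (0.69, SE 0.15, adjusted p = 0.00858). In OR9Q2 lung replicates 1 and 3 were high (8.19 and 8.14) and lung replicate 2 (7.25) lay inside the parental range of 6.91 to 7.42 (0.68, SE 0.20, adjusted p = 0.0286).

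OR8J1 had the smallest p of all members, with replicates that lay close together and a difference of moderate size. It measured 4.51, 4.50 and 4.56 in lung, 4.10, 4.06 and 4.24 in liver and 3.94, 4.11, 4.11 and 4.15 in parental replicates. All 3 lung arrays exceeded all other arrays, by a difference from parental cells of 0.45 (SE 0.07, adjusted p = 0.00162). Among the members with the highest levels, OR52M1, a class I receptor, averaged 8.31 ± 0.22 in lung and 7.64 ± 0.23 in parental arrays (SD, n = 3 and 4; 0.67, adjusted p = 0.00499). OR10S1 averaged 8.25 ± 0.21 in lung and 7.69 ± 0.25 in parental arrays (0.56, adjusted p = 0.0119), and OR10G7 differed by 0.32 (adjusted p = 0.0398). OR51S1 (0.18) and OR2W3 (0.12) were not called. At the dim end OR6C70 was called (0.28, adjusted p = 0.0178) and OR6K3 was not (0.16, adjusted p = 0.234).

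**Figure D2:**
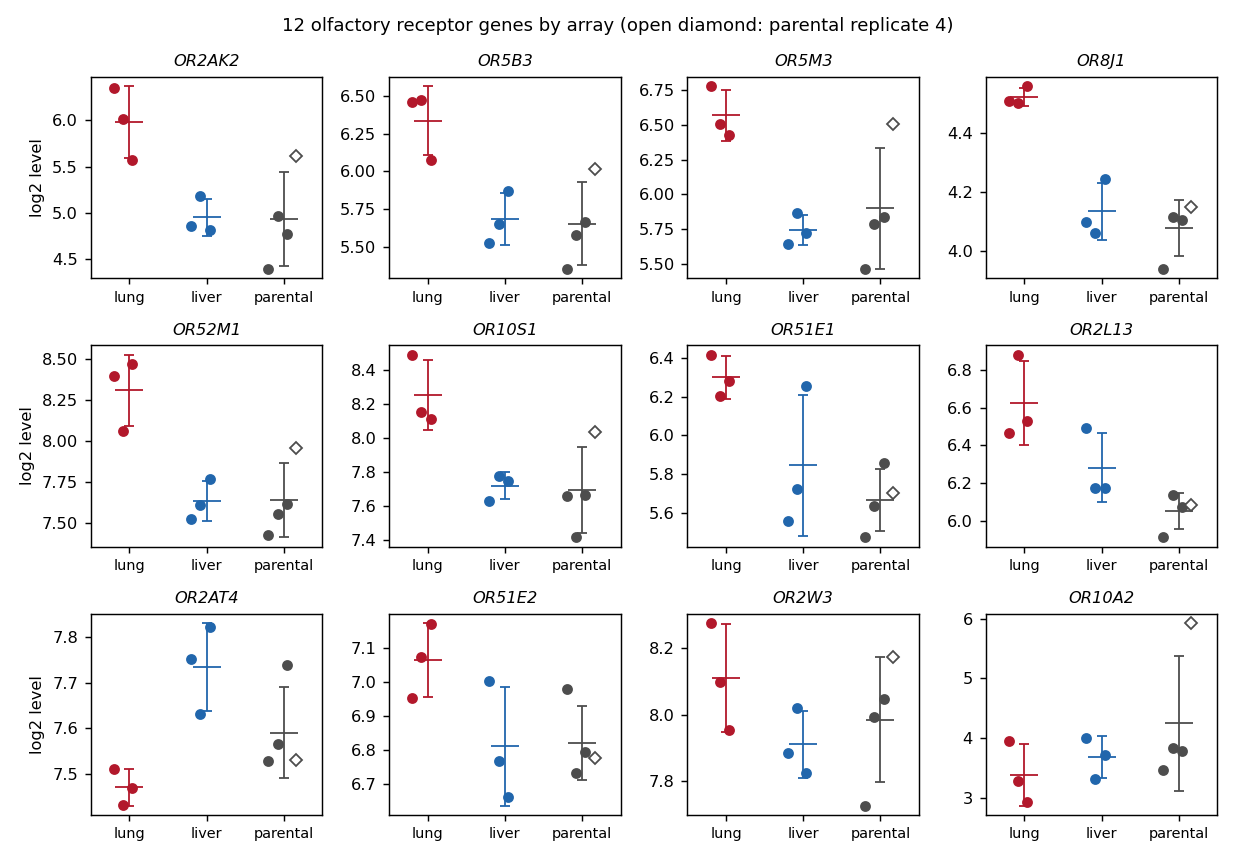
Log2 level of 12 olfactory receptor genes in lung, liver and parental arrays; points are arrays, the open diamond is parental replicate 4, bars are mean and SD, and each panel has its own scale. In OR8J1 and OR52M1 all 3 lung arrays lie above the other 7, in OR2AT4 they lie below them, and in OR10A2 parental replicate 4 (5.93) lies far above all other arrays.

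Of the 11 members with a negative lung difference, 0 were called (limma; unadjusted, 110 of the 227 members had p under 0.05 in this comparison). OR10A2 had 3.95, 3.28 and 2.93 in lung against 3.47, 3.83, 3.78 and 5.93 in parental arrays. Parental replicate 4 was far above the rest and the other parental arrays overlapped the lung arrays (-0.86, SE 0.50, adjusted p = 0.208). OR2AT4, a receptor known from skin keratinocytes, was the second lowest, with 7.51, 7.43 and 7.47 in lung against 7.53, 7.56, 7.74 and 7.53 in parental arrays (-0.12, SE 0.07, adjusted p = 0.226).

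Lung derivatives were also higher than liver derivatives, a comparison that shares the lung arrays with the one above. The median difference of members was 0.30, against -0.02 over all genes, and 56 members (24.7%) were called higher and 1 lower, where 8.02% of all genes were called higher and 11.9% lower (19.9% in all). The 994 other genes in the lowest level bin had a median of 0.10, with 14.4% called higher and 2.31% lower. Row by row 23 of 305 member rows were called (7.54%), all higher, beside 12.6% of all rows called and 5.02% called higher. After OR2AK2 (1.03, SE 0.27, adjusted p = 0.0263) the largest rises were in the class II receptors OR1S2 and OR5M3. OR1S2 had 6.21, 5.50 and 6.34 in lung against 4.85, 5.16 and 5.49 in liver arrays (0.85, SE 0.24, adjusted p = 0.0323). OR5M3 had 6.78, 6.51 and 6.43 in lung against 5.64, 5.86 and 5.72 in liver arrays (0.83, SE 0.21, adjusted p = 0.0238). The smallest p was in OR5W2, with 5.91, 5.80 and 5.93 in lung against 5.21, 5.18 and 5.39 in liver arrays (0.62, SE 0.11, adjusted p = 0.0109). In all 3 genes the groups did not overlap. OR9Q2 followed with 0.69 (adjusted p = 0.0475). OR2AT4 was the member that fell, to 7.47 ± 0.04 in lung against 7.74 ± 0.10 in liver arrays (SD, n = 3 each; -0.27, SE 0.08, adjusted p = 0.0358). The count of 57 was 14 without liver replicate 1 and 0 without liver replicate 2 (limma, 72 at an unadjusted p under 0.05). It was 19 without liver replicate 3, 8 without lung replicate 1 and 27 without lung replicate 3. Over all genes the count of 937 was 364, 31, 174, 188 and 602 in these fits, in the same order.

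**Figure D3:**
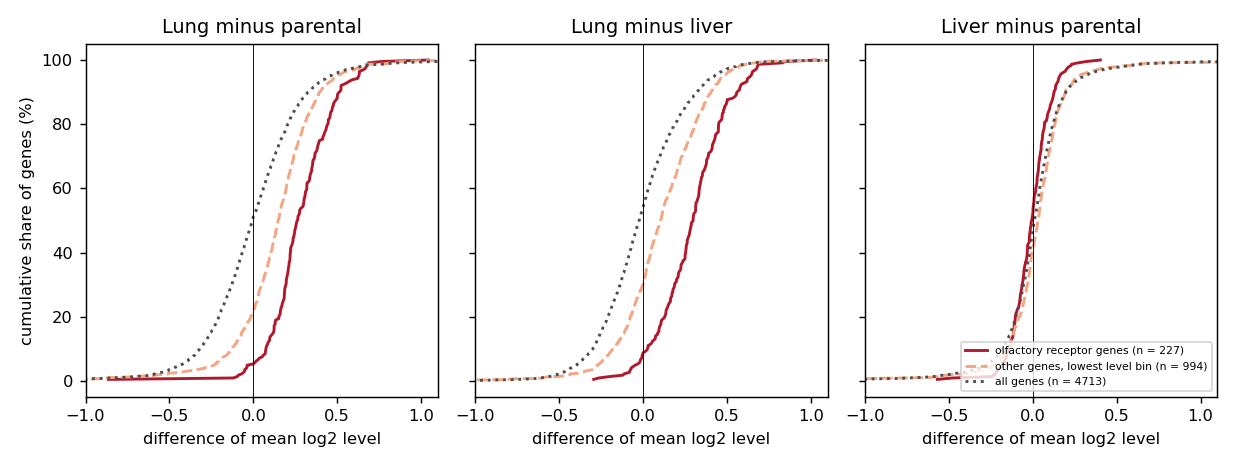
Cumulative share of genes by difference of mean log2 level, for lung minus parental, lung minus liver and liver minus parental arrays; lines are the 227 olfactory receptor genes, the 994 other genes of the lowest level bin and all 4713 genes. The receptor curve lies to the right of the other curves in both lung panels (medians 0.26 and 0.30) and is centred at -0.01 in the liver panel.

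Liver derivatives did not differ detectably from parental cells in any member. Over the 227 members the median difference was -0.01, with 109 positive and 118 negative, and the 10th and 90th percentiles were -0.15 and 0.13. In limma 0 were called, and 4 had an unadjusted p under 0.05, while 7.83% of all genes were called, 4.33% higher and 3.5% lower. Row by row 0 of 305 member rows were called, beside 2.2% of all rows called and 1.15% called higher. The largest positive differences were in OR2L8 and OR4D6. OR2L8 had 5.74, 5.63 and 5.94 in liver against 5.22, 5.17, 5.70 and 5.37 in parental arrays (0.40, SE 0.16, adjusted p = 0.180), and liver replicate 2 lay inside the parental range. OR4D6 (0.32, SE 0.22, adjusted p = 0.521) had its high value in liver replicate 3 (7.99). The largest negative differences were in OR10A2 (-0.57, SE 0.50), where parental replicate 4 is the high array, and OR2L2, with 5.18, 4.98 and 5.22 in liver against 5.66, 5.15, 5.45 and 6.18 in parental arrays (-0.48, SE 0.19, adjusted p = 0.180). OR2L2, OR2L5, OR2L8 and OR2L13 share a subfamily by their symbols, as do OR10A2 and OR10A5. Their sequences were not compared here. Probes may not separate such relatives, which leaves the value of each uncertain.

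Parental replicate 4 lay above the other parental arrays for most members. Its difference from the mean of parental replicates 1 to 3, which has no replicate check, had a median of 0.15 over members against -0.02 over all genes. It lay above all 3 others in 129 members (56.8%) and below them in 21 (9.25%), where 32.7% of all genes lay above and 39.5% below. Of the 994 other genes in the lowest level bin 38.9% lay above, with a median of 0.05. The largest differences were 2.24 in OR10A2, 1.01 in OR10A5, its neighbour in the same chromosome 11 cluster, and 0.90 in OR2AK2. OR10A5 had 6.12 in parental replicate 4 and 4.97, 5.19 and 5.17 in the others. That array was above the lung arrays in this gene as well (5.80, 5.92 and 5.76).

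Set against parental replicate 4 alone, the lung arrays were still higher over the family, by a median of 0.16 against 0.00 over all genes. The 994 other genes in the lowest level bin had a median of 0.10. Every lung array lay above parental replicate 4 in 91 members (40.1%), beside 29.9% of all genes and 41.4% of the 994 other genes in the lowest level bin. Every lung array lay below it in 16 members (7.05%), beside 33.8% of all genes and 15.3% of those other dim genes. In a limma fit with a term for lung arrays and parental replicate 4 together, the lung difference is set against this 1 array, and 5 members were called, beside 5.75% of all genes. They were OR5AS1 (0.43, adjusted p = 0.0152), OR5T2 (0.45, adjusted p = 0.0158), OR56A5 (0.58, adjusted p = 0.0403) and OR2G2 (0.47, adjusted p = 0.0443) as higher and OR10A2 (-2.54) as lower. These genes were chosen after their values were seen, OR10A2 apart. None of the called rises named above passed in that fit.

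Receptors reported outside the nose did not share a pattern. OR51E1 was higher in lung derivatives, with 6.42, 6.20 and 6.28 in lung, 5.56, 5.73 and 6.25 in liver and 5.47, 5.64, 5.86 and 5.71 in parental arrays. All lung arrays exceeded the parental ones (0.63, SE 0.15, adjusted p = 0.0106), but its 4 rows differed by 1.81, 0.47, 0.44 and -0.21 and 1 was called when rows were fitted singly. OR2L13, known from platelets, had 6.46, 6.88 and 6.53 in lung against 5.91, 6.14, 6.08 and 6.08 in parental arrays (0.57, SE 0.11, adjusted p = 0.00516). OR51E2, a receptor of short-chain fatty acids, averaged 7.06 ± 0.11 in lung and 6.82 ± 0.11 in parental arrays (SD, n = 3 and 4; 0.24, adjusted p = 0.0698). Differences of OR2C3 (0.13), OR2W3 (0.12), OR51B5 (0.11), OR13A1 (-0.04) and OR51B4 (-0.04) were not called. In liver derivatives these receptors differed by -0.12 (OR51B4) to 0.23 (OR2L13), with 0 called.

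The lung difference was spread over receptor classes, families and clusters. Of 172 class II members 55 (32.0%) were called higher (median difference 0.28), and of 55 class I members 13 (23.6%, median 0.22). Over all genes 12.9% were called higher, and of the 994 other genes in the lowest level bin 22.9%. Families 5, 4, 2 and 52 held 15, 9, 9 and 8 of the calls among 34, 24, 32 and 26 members. By chromosome 49 of 159 members were called on chromosome 11, 14 of 50 on chromosome 1 and 5 of 17 on chromosome 12. Grouped by starts at most 1 Mb apart, 220 members fell in 8 clusters of 5 or more, and the median lung difference of these clusters ranged from 0.21 to 0.33. The lowest was that from OR10T2 to OR10J5 on chromosome 1 (16 members) and the highest that from OR4C46 to OR5AK2 on chromosome 11 (44 members, 20 called). In the largest, from OR52B4 to OR10A3 on chromosome 11, 67 members had a median of 0.23 with 14 called. The 44 measured genes of other families that lie between them had a median of 0.03, with 6 called higher and 6 lower, but their median level was also higher, at 7.17 against 6.41.

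Other families and other dim genes moved the same way to differing degrees. Taste receptors, the other large chemosensory family here, had a median lung difference of 0.20 with 3 of 16 called higher (TAS2R7, TAS2R9 and TAS2R10). Keratin-associated proteins, hair shaft components, had 0.34 with 5 of 10 called higher, and late cornified envelope genes of the skin 0.17 with 4 of 15. None of these 3 families had a call in liver derivatives or a lower call in lung derivatives. Ribosomal protein genes had -0.06, with 1 of 15 called higher and 1 lower. Across the other genes of the table the median difference was 0.15, 0.04, -0.10 and -0.12 from the lowest to the highest level bin, and 228 of 994, 159 of 1136, 95 of 1178 and 56 of 1178 were called higher. Members in the lowest level bin had a median of 0.26 with 52 of 185 (28.1%) called higher, and the 42 members in the next bin had 0.28 with 16 (38.1%). In members with 1 row in the lowest level bin 29.0% were called higher, and in the 56 other genes with 1 row there 16.1%. Whether members differ from other dim genes was not tested.

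**Figure D4:**
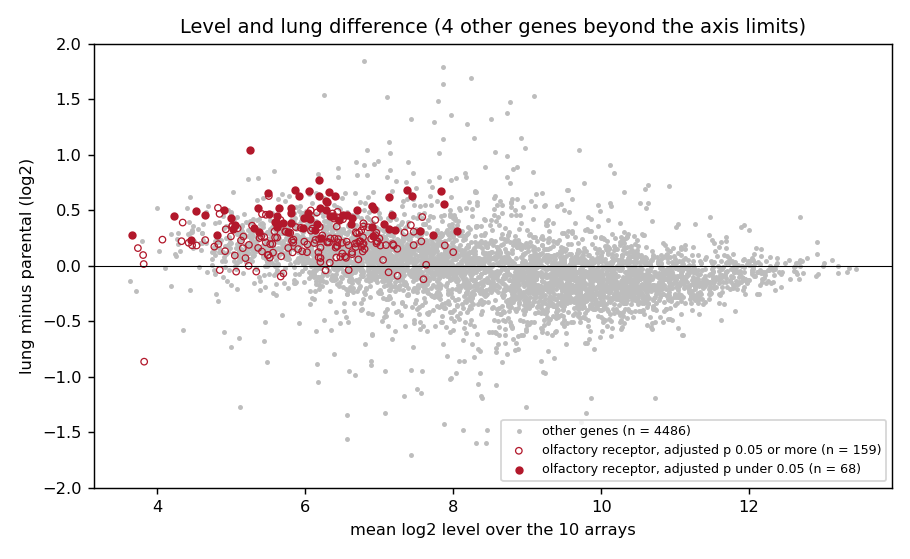
Lung minus parental difference of mean log2 level against the mean log2 level over the 10 arrays, 1 point per gene; filled points are the 68 called olfactory receptor genes, open points the other 159 and grey points all other genes. The receptors lie between 3.66 and 8.06, nearly all above 0, in a range where grey points also lean upward.

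**Figure D5:**
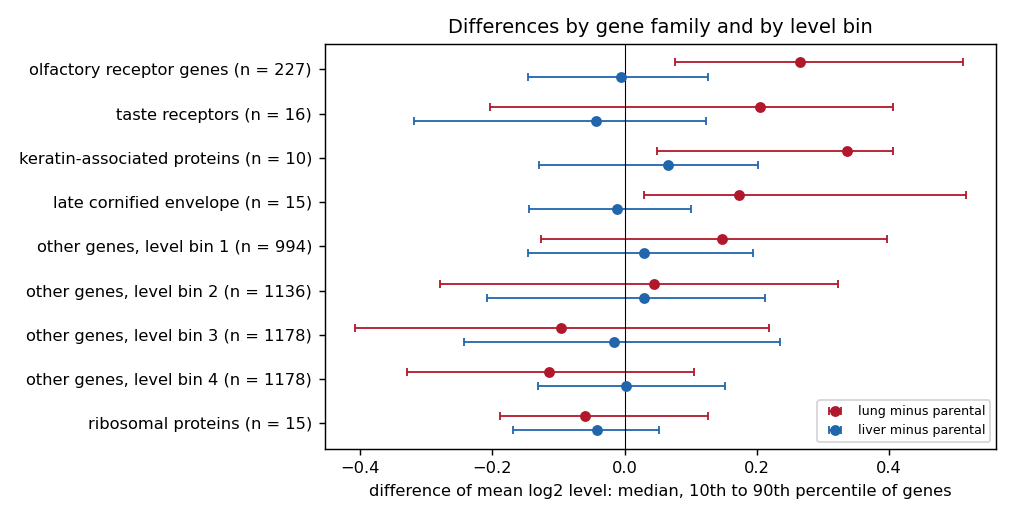
Median difference of mean log2 level with the 10th to 90th percentile of genes, lung minus parental and liver minus parental, for olfactory receptor genes, 3 other tissue-restricted families, other genes by level bin and ribosomal protein genes. In lung the restricted families lie between 0.17 and 0.34 and the level bins reach -0.12 in the brightest, while in liver all medians lie between -0.04 and 0.07.

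Genes that act with olfactory receptors were mixed in direction, and their difference from the family was not tested. Of 28 listed genes 11 were measured, and in lung derivatives 1 was called higher and 1 lower, with a median difference of -0.05. The list holds bright, widely expressed genes (GNB1, KDM1A, LDB1 and ARRB1, with levels from 10.38 to 12.21), and the bright level bins had negative medians in lung. The 4 measured markers of olfactory sensory neurons, OMP, CNGA4, ANO2 and S100A5, had a median of 0.14, with 3 positive and 1 called. The calcium-binding protein S100A5, found in olfactory neurons, was higher by mean of its rows (0.21, adjusted p = 0.0472), but its brightest row gave -0.03. LDB1, an adaptor of LHX2 at receptor gene enhancers in the mouse, fell to 10.20 ± 0.14 in lung against 10.50 ± 0.17 in parental arrays (SD, n = 3 and 4; -0.31, adjusted p = 0.0368). It differed by -0.08 against parental replicate 4. The histone demethylase KDM1A, needed for receptor choice in the mouse, differed by -0.16 (adjusted p = 0.0671). RIC8B, which folds the olfactory G protein, differed by -0.22 (adjusted p = 0.0654). Differences of the channel subunit CNGA4 (0.16), ANO2 (0.12), the transcription factors EMX2 (0.06) and EBF3 (-0.04), the G protein subunit GNB1 (-0.05), the arrestin ARRB1 (-0.05) and the olfactory marker protein OMP (-0.08) were not called. OMP was lower in lung than in liver derivatives (-0.21, adjusted p = 0.0488), as was LDB1 (-0.33, adjusted p = 0.0469). In liver derivatives 0 of the 11 were called.

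As a description of likeness over the 10 arrays, which share the group means and array shifts above, OR8J1 correlated most with OR5L1 (r = 0.97) and OR6N1 (r = 0.93). OR5W2 correlated most with OR2L5 (r = 0.96) and OR52M1 (r = 0.96), and OR2L8 with OR51G2 (r = 0.89) and OR51V1 (r = 0.88). These partners come from different families and, in part, different chromosomes.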

How the data were processed

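The authors deposited log2 expression values, from Affymetrix HG1.0ST arrays; the submitters' processing notes name RMA and oligo, an R package, without versions. RMA corrects background, puts arrays on a common distribution and summarises probes. The build of the array design and the level of summary are not given in the sources used here. The table has 65535 rows, the row limit of older spreadsheets with a header, and may hold part of the array. The platform annotation lists a gene for 56949 rows, 54806 of them with 1 symbol, and 4 members took a newer RefSeq name. Members on other chromosomes were not analysed here.

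Rows of a gene were averaged, and limma 3.58.1 (R 4.3.3) was fitted to all 4713 genes with 1 coefficient per group over the 10 arrays, two-sided, with Benjamini-Hochberg adjustment over all genes of a contrast, no filter and a threshold of 0.05. The script was tested on simulated data. Precision is limited by how many arrays there are and, where rows are dim, by signal over background. Members and lists were chosen with earlier results of these data known.

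Genes were named by a rule: up to 4 called rises and 4 called falls per comparison (filled up to 2 each with uncalled ones), the 5 highest and 2 lowest levels, the 3 largest differences of parental replicate 4, receptors known outside the nose, the olfactory list, and the member with the smallest p in each comparison with its 2 closest correlates. Alternatives were another summary of rows, single rows, renormalization, an array term, a replicate block, fewer arrays, a filter on dim genes, another eBayes and other member rules. Same-numbered arrays of different groups were checked for shared deviations, and their correlations ran from -0.20 to 0.13, so they were not treated as pairs.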

Additional observations from a re-analysis of the deposited data

Results flagged for a closer look

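Parental replicate 4 lay far from the other parental arrays in OR10A2 (5.93 against 3.47 to 3.83), in OR1S2 (5.84 against 5.18 to 5.26) and in OR6K3 (3.99 against 3.63 to 3.68). Of the 39 genes named, these 3 had a gap to the nearest parental array that exceeded the 95% limit for 4 samples, which chance passes in about 1 of 20 groups. Over all members 10 did (4.41%), and 7.47% of all genes. OR10A2 met the naming rule through its difference in parental replicate 4, so its flag carries no weight of its own.

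The effects of the lung and liver derivatives relative to parental cells differed, by the direct limma contrast of lung with liver arrays, in 12 of the named receptors and 2 genes of the olfactory list. Over all genes 19.9% were called in this contrast. OR2AK2, OR1S2, OR5M3, OR9Q2, OR2AT4 and OR5W2 met the naming rule through this same contrast, so the count of receptors carries no weight of its own. Lung was higher in OR2AK2 (1.03), OR1S2 (0.85), OR5M3 (0.83), OR9Q2 (0.69), OR52M1 (0.68), OR5B3 (0.65), OR5W2 (0.62), OR10S1 (0.53), OR10G7 (0.43), OR8J1 (0.39) and OR6C70 (0.33). It was lower in OR2AT4 (-0.27), LDB1 (-0.33) and OMP (-0.21). None of the genes in this paragraph passed in the limma fit where lung arrays and parental replicate 4 shared a term. There lung and liver arrays are linked through parental replicate 4 alone. In that fit 0 members were called (21 at an unadjusted p under 0.05), and 4 of all 4713 genes. The loss is thus not particular to the genes listed.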

How the results depend on the processing

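The number of members called in lung minus parental was 68. It was 5 with the term for lung arrays and parental replicate 4, 45 by the brightest row, 33 with every row fitted on its own (10.8% of member rows, beside 13.1% of all rows), 16 of 42 without the lowest level bin, 43 with the 7 arrays compared, 112 with the replicate block and 4 of 19 among members with at least 3 rows. Over all genes the count of 1420 was 271 with the term, 1051 by the brightest row and 1209 without the lowest level bin. It was 937 with the 7 arrays compared and 1788 with the replicate block. Replicate number 4 occurs only among parental arrays, so the block gives parental replicate 4 a term of its own. Without that array 102 members and 1950 of all genes were called in lung minus parental. For lung minus liver the number of members called was 57, and under the same settings 0 with the term, 23 by single rows, 15 of 42, 97 with the replicate block and 2 of 19. Over all genes 937 became 4 with the term, 872 without the lowest level bin and 1290 with the replicate block. For liver minus parental the member count of 0 became 1 with the replicate block (OR2L8), where 348 of all genes were called. Leaving out 1 array at a time gave 31 to 107, 0 to 85 and 0 to 1 members for the 3 contrasts. Over all genes it gave 832 to 1950, 31 to 1523 and 219 to 422. The median lung minus liver difference moved to 0.13 with the term, and the other medians moved by less than the SD of array medians within groups (0.11). By its brightest row S100A5 turned to -0.0349 in lung minus parental and -0.59 in lung minus liver. Of the values of named genes under these settings 1947 kept their side of the threshold, 168 lost their call, 37 gained one and 2 turned. Some of these settings use fewer arrays or genes, and the cause of the losses was not tested. All calls of members in lung minus parental were upward under each setting but the term. In dim rows, signal over background limits what 3 arrays a group can resolve.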
